A study of Mus musculus with 48 samples.

Results

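Cyclophosphamide, Methotrexate and Azathioprine are drugs that damage DNA or starve dividing cells of nucleotides, and here each was given to neuron cultures injured with NMDA and set against cultures given no drug. The comparison holds 13 of the 48 arrays of the series: 1 array for each of the 3 drugs, picked by their compound labels, and all 10 control arrays. The drug arrays came from CD-1 mouse cortical neurons after 7 days of culture, pre-treated with Cyclophosphamide, Methotrexate or Azathioprine dissolved in water, then exposed for 1 h to NMDA, an agonist of glutamate receptors, in a hypotonic salt solution and returned to drug for 16 h. The controls went through the same NMDA step and are 5 mock controls in water and 5 vehicle controls in DMSO, the solvent of other compounds, so no array shows an uninjured culture. The labels carry no dose, and nothing says whether the control arrays came from separate cultures, so p-values measure only the spread between these samples. The labels call Cyclophosphamide and Azathioprine immunomodulators and Methotrexate an enzyme inhibitor. They give a protection ratio of 1.68 for Cyclophosphamide and 1.61 for Methotrexate, both classed as protective, of 1.22 for Azathioprine, which is classed as not used, and of 1 for the controls.

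Cyclophosphamide is a prodrug that liver cytochromes turn into an alkylating mustard, which crosslinks DNA. Methotrexate is a folate analogue that, once polyglutamated, blocks thymidylate synthase and the folate-dependent steps of purine synthesis. Azathioprine releases mercaptopurine, which hypoxanthine phosphoribosyltransferase turns into thioguanine nucleotides that enter DNA and that thiopurine methyltransferase diverts. Neurons do not divide, so in a culture like this one the cells that replicate DNA are glial progenitors, microglia and other non-neuronal cells, while folate and purine metabolism and the response to DNA damage run in neurons too.

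All values are background-corrected, normalized signals on the log2 scale, and a difference is given in log2 units, so that 1 unit is a 2-fold difference in signal. The median raw signal was 56.0 on the Cyclophosphamide array, 66.8 on the Methotrexate array and 57.1 on the Azathioprine array, against 40.7 to 80.1 on the control arrays. Over the genes tested, the drug arrays correlated with the controls at a median of 0.976 (Cyclophosphamide), 0.960 (Methotrexate) and 0.940 (Azathioprine), against 0.969 for the controls among themselves. The labelled cell type is present: all 10 controls detected Tubb3 (neuronal tubulin), Rbfox3 (the NeuN antigen) and Snap25 (a synaptic release protein). They also detected the astrocyte gene Gfap, the oligodendrocyte lineage gene Olig1 and the microglial gene Cx3cr1, so the cultures were mixed. In such bulk RNA, fewer cells of a type and less RNA per cell cannot be told apart. Chip, position and solvent are tied to the groups: 8 of the controls sit at position A of a chip and the drugs at positions B, C and E. Chip 6, which carried Methotrexate, held only a vehicle control in DMSO. Vehicle control 1, on that chip, had high neuronal genes, and mock control 2, on the chip of Cyclophosphamide, had low ciliary genes, so each drug is also set against the control of its own chip.

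The first question is what the 3 drugs share. No probe passed limma's test of the 3 drugs against the 10 controls (0 of 17815 probes, 0.0%, at a Benjamini-Hochberg adjusted p under 0.05, smallest adjusted p = 0.0758). At an unadjusted p under 0.05 there were 808 probes (4.54%), of which 631 were higher and 177 lower in the drugs. Set against the 33 other compounds, the drugs again gave 0 called probes (0.0%) in limma, with 54 at an unadjusted p under 0.05 (0.303%). The genes with the smallest p there were Cbwd1, Thnsl2, Scrib, C1ql3 and Runx1, all at an adjusted p of 1 in limma. The 5 genes with the smallest p against controls were Gbf1, Eif4ebp2, Zbtb38, Tet2 and Tbl1x, and none of them passed. Eif4ebp2, a brake on cap-dependent translation that is abundant in brain, had values of 8.80 (Cyclophosphamide), 8.49 (Methotrexate) and 9.26 (Azathioprine), against a control median of 7.94 (range 7.76 to 8.22). The groups did not overlap for Eif4ebp2, and the drug mean was 0.90 ± 0.15 higher (SE, n = 3 and 10, limma adjusted p = 0.0758). Tbl1x, a subunit of nuclear corepressor complexes, reached 8.89, 8.74 and 9.13 in the same order, against a control median of 8.20 (7.83 to 8.41). Its second probe differed by only 0.50, -0.27 and 0.02, so the gene's 2 probes disagree. Gbf1, Zbtb38 and Tet2, the last an enzyme that oxidises 5-methylcytosine, were detected on none of the 10 controls, so their differences rest on signals near background. When the array's place on its chip entered the fit as a covariate, over all 48 arrays, 19 probes passed, 18 of them higher in the drugs, and the 5 genes above were among those past the threshold. Over the same 48 arrays without that covariate 0 probes passed (smallest adjusted p = 0.531 in limma). With chip as a fixed term over them 0 passed as well (smallest adjusted p = 0.519 in limma).

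All 3 drug arrays lay above all 10 controls in 68 genes (0.689% of the 9869 genes tested) and below all of them in 8 (0.0811%). The 10 genes with the largest smallest difference were Ddx6, Rai1, Crebbp, Senp1, Gatad2b, Lsm12, Ago2, Bach1, Zbtb38 and Chd1. Ddx6, an RNA helicase of processing bodies, had 9.54 (Cyclophosphamide), 9.43 (Methotrexate) and 9.75 (Azathioprine), against 8.40 (7.83 to 8.87) in controls, which makes it 1.19, 1.08 and 1.40 units higher. Crebbp, a histone acetyltransferase and transcriptional coactivator, had 6.36, 6.27 and 7.17 in the same order, against 5.36 (4.92 to 5.89) in controls, and its second probe was also higher in each drug (0.84, 0.56 and 1.43). Bach1, a repressor of heme and oxidative stress genes, had 7.54, 6.92 and 8.31, against 6.27 (5.68 to 6.77) in controls. That the drugs lie above the controls in these genes follows from how the genes were picked. Azathioprine was the highest of the 3 drugs in Ddx6, Crebbp and Bach1. Against the control of its own chip, Methotrexate was only 0.56, 0.39 and 0.21 higher in these genes. Cyclophosphamide was 1.62, 0.97 and 0.77 higher there, and Azathioprine 0.92, 1.34 and 2.02. The second probe of Ddx6 was higher in Cyclophosphamide (1.16) and Azathioprine (1.36) but not in Methotrexate (-0.03). In Methotrexate the second probe of Ago2 gave 0.09, and 1 of the 3 other Lsm12 probes gave -0.96. Second probes of Rai1, Gatad2b and Chd1 lay within 0.5 units of the control mean in every drug, so the probes of these genes disagree. The 8 genes below all controls were Txndc11, Cbr4, Fkbpl, Stx2, Rpp30, Cdc42se1, Hddc2 and Fcsk, with differences no larger than -0.67 (Fkbpl in Cyclophosphamide).

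Other compounds were high in the same 68 genes. Their mean difference from controls was 0.53 in Cyclophosphamide, 0.49 in Methotrexate and 0.73 in Azathioprine, against -0.10 to 0.12 in the controls and a median of 0.33 (range -0.32 to 0.81) over the 35 arrays of other compounds. On 28 of those 35 arrays the mean exceeded that of the highest control, and in 65 of the 68 genes at least 10 of them lay above all controls. For Rai1, a retinoic acid-induced transcriptional regulator, 29 of the 35 other arrays exceeded all controls. The controls sit at position A and the compounds at the other positions, except that vehicle controls 4 and 5 sit at position B, as Azathioprine does. Position and treatment are thus largely tied, and the part of position in these 68 genes was not tested.

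Because each drug has 1 array, differences of a single drug were described and not tested: a gene counted as higher or lower if it lay outside the range of the 10 controls and differed from their mean by at least 1 unit. Cyclophosphamide had 24 genes higher (0.243%) and 8 lower (0.0811%). Methotrexate had 25 higher (0.253%) and 141 lower (1.43%), and Azathioprine 184 higher (1.86%) and 312 lower (3.16%). By the same rule, each control set against the other 9 gave 13 to 763 genes in both directions (median 66), with the 763 in vehicle control 1, and the arrays of other compounds gave 10 to 1560 (median 303). Cyclophosphamide, with 32 genes, was therefore within the spread of untreated arrays, Methotrexate, with 166, was just under vehicle control 2 (172) and mock control 2 (175), and Azathioprine, with 496, exceeded every control but vehicle control 1. Of the 24 higher genes of Cyclophosphamide, 6 (25%) were also higher in Azathioprine, where 1.86% of all genes were. Of its 8 lower genes, 3 (37.5%) were also lower there, against 3.16% of all genes. Methotrexate shared 1 higher gene with Cyclophosphamide and 2 with Azathioprine (4% and 8% of its 25), and 0 lower genes with either. The same 10 controls enter every list, and the overlap was not tested.

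**Figure D1:**
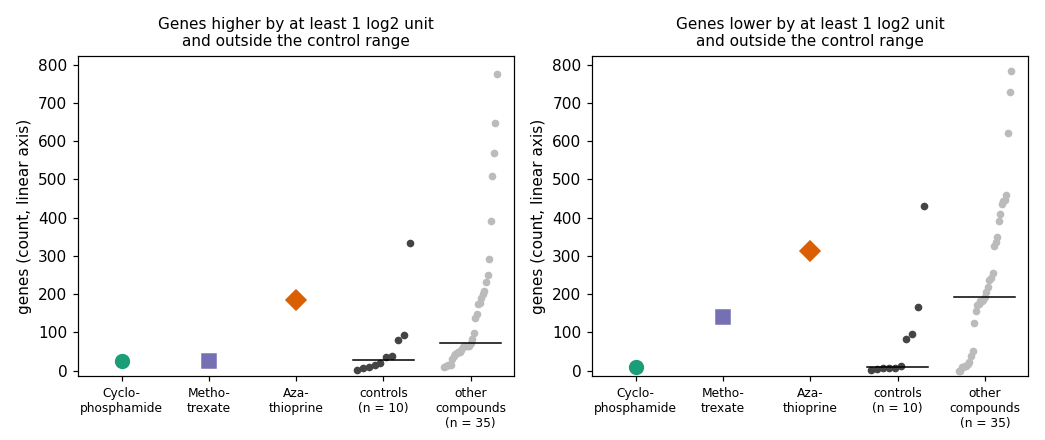
Number of genes at least 1 log2 unit above (left) or below (right) the control mean and outside the control range, on a linear axis. Large symbols are the single arrays of the 3 drugs, small dark points the 10 controls (each against the other 9), small light points the 35 arrays of other compounds, and bars the medians. Azathioprine had 184 genes higher and 312 lower, while Cyclophosphamide (24 and 8) sits among the controls.

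The drugs' own targets and handling enzymes come first. No probe on the array carries the symbol Impdh2, and the probes of Atic, Ggh and Aldh1a1 were detected on 0 arrays. Tyms, which encodes thymidylate synthase, had 8.16 in Cyclophosphamide, 8.53 in Methotrexate and 7.5 in Azathioprine, against a control median of 8.84 (7.85 to 9.19). The Methotrexate culture, where this enzyme would be blocked, sat inside the control range for its mRNA, and only Azathioprine lay below it, with a difference of -1.12 from the control mean for Tyms. One of the 2 other Tyms probes gave -1.40 in Azathioprine and the second 0.20. Among the other folate enzymes, Gart, which adds a folate-borne carbon in purine synthesis, had 8.58, 8.97 and 8.61 (Cyclophosphamide, Methotrexate, Azathioprine), against 8.72 (8.44 to 9.27) in controls. Slc19a1, the reduced folate carrier that takes up Methotrexate, had 7.31, 7.59 and 7.69, against 7.31 (6.93 to 7.84) in controls, and Fpgs, which polyglutamates folates, had 5.28, 6.0 and 5.74, against 5.85 (5.43 to 6.09). For Gart and Slc19a1 all 3 drugs lay inside the control range, and for Fpgs only the Cyclophosphamide value, which was not above background, lay outside.

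Tpmt, whose enzyme inactivates thiopurines, had its lowest value of all 48 arrays in Azathioprine. It was 6.50 there, 6.79 in Methotrexate and 7.43 in Cyclophosphamide, against 7.16 (6.99 to 7.52) in controls and 7.09 (6.72 to 7.59) over the other compounds. Azathioprine was thus 0.69 units below the control mean, but a second Tpmt probe was 0.32 above it, so the 2 probes disagree on the direction. In Methotrexate both probes were lower, by -0.40 and -0.49. Hprt, the enzyme that activates mercaptopurine, had 9.97, 10.02 and 10.28 (Cyclophosphamide, Methotrexate, Azathioprine), against 10 (9.81 to 10.34) in controls, all inside the control range, although 2 other Hprt probes gave -1.15 and -1.35 in Methotrexate. Rac1, a small GTPase that thioguanine nucleotides block in T cells, stayed inside the control range in every drug (8.96, 9.28 and 9.66, against 8.62 to 9.94). Impdh1 did too, at 6.53, 6.65 and 7.12, against 6.16 to 7.33. Mgmt, which repairs alkylated guanine, had 7.81 in Cyclophosphamide, 6.81 in Methotrexate and 6.86 in Azathioprine, inside a control range of 5.14 to 8.34 that is too wide to show a difference. Xdh, which oxidises mercaptopurine, was detected on 4 controls and, among the drugs, in Cyclophosphamide (5.80, inside the control range of 4.56 to 6.49).

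**Figure D2:**
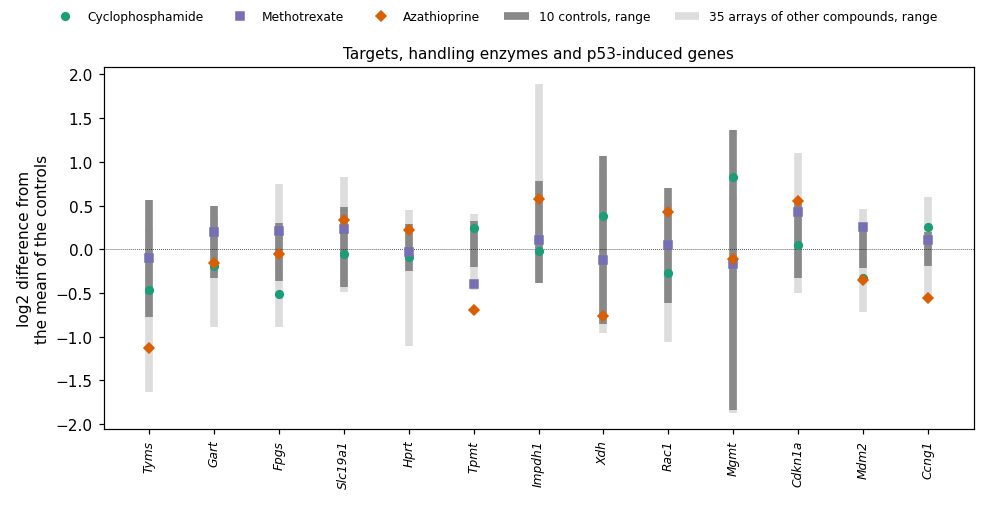
Log2 difference from the mean of the 10 controls for 13 genes that the drugs act on, that handle the drugs or that p53 induces. Symbols are the 3 drug arrays, dark bars the range of the controls and light bars the range of the 35 arrays of other compounds. Tpmt and Ccng1 in Azathioprine lie below all other arrays, and most other symbols lie within the dark bars.

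The pathway lists gave small medians. Of the folate cycle list 20 of 30 genes were measured, and their median difference was -0.04 in Cyclophosphamide, -0.03 in Methotrexate and -0.03 in Azathioprine, beside -0.06, 0.07 and 0.09 over all genes. Methotrexate lay above all controls in 0 and below all of them in 2 of these 20 genes, where 13.9% and 7.49% of all genes did so. Azathioprine lay below all controls in 5 of them (16.7% of all genes), and 2 of the 5 had their lowest value of all 48 arrays there. Ahcy, which hydrolyses S-adenosylhomocysteine, had 5.92 in Azathioprine, against 6.99 (6.69 to 7.30) in controls, while Cyclophosphamide had 7.36 and Methotrexate 6.56. Shmt1, which moves a carbon from serine to folate, had 5.37 in Azathioprine, against 6.36 (5.97 to 6.76) in controls, and its second probe differed by -0.14 only. Of the purine and pyrimidine list 38 of 46 genes were measured, with medians of -0.02, -0.03 and -0.09 in the same drug order. Below all controls lay 2, 5 and 9 of the 38 (12.5%, 7.49% and 16.7% of all genes), and above them 2, 4 and 2 (7.2%, 13.9% and 19.5%). The genes of this list with the smallest p were Ctps2 and Umps, both of pyrimidine synthesis. Ctps2 had 6.81 in Cyclophosphamide, 7.43 in Methotrexate and 6.64 in Azathioprine, against 7.39 (7.20 to 7.73) in controls, and did not pass (unadjusted p = 0.0118 in limma). Rrm1, the large subunit of ribonucleotide reductase, lay at 8.59 in Cyclophosphamide and 6.76 in Azathioprine, above and below the control range of 7.26 to 8.49, with 7.63 in Methotrexate. It was named after its values were seen. The thiopurine handling list (13 of 18 measured) had medians of -0.03, -0.01 and 0.24, and the alkylator handling list (14 of 22) 0.11, 0.03 and 0.01. Among these genes Gstm2, a glutathione transferase, had its highest value of all 48 arrays in Methotrexate (9.75) and was low in Azathioprine (7.66), with 8.39 in Cyclophosphamide, against 8.96 (8.27 to 9.43) in controls. Its 2 other probes gave the same directions in Methotrexate (0.68 and 0.77) and Azathioprine (-1.23 and -0.97).

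The p53 targets, which DNA damage induces, showed no shared shift in any drug. Of 35 p53 targets 27 were measured. Their median difference was -0.01 in Cyclophosphamide, 0.10 in Methotrexate and -0.03 in Azathioprine, and 2, 4 and 4 genes lay above all controls while 3, 1 and 6 lay below. Over all genes, 7.2%, 13.9% and 19.5% lay above all controls and 12.5%, 7.49% and 16.7% below. Cdkn1a, which encodes the cell cycle inhibitor p21 and is the best known p53 target, had 10.20, 10.57 and 10.70, against 10.13 (9.81 to 10.67) in controls, so Azathioprine lay just above the highest control and the other drugs inside the range. Mdm2, the ubiquitin ligase that p53 induces against itself, had 9.72 in Cyclophosphamide, 10.31 in Methotrexate and 9.70 in Azathioprine, against 10.07 (9.84 to 10.33) in controls, so 2 drugs lay below all controls. Ccng1, another p53 target, had its lowest value of all 48 arrays in Azathioprine, at 9.83, with 10.64 in Cyclophosphamide and 10.49 in Methotrexate, against 10.35 (10.19 to 10.58) in controls. Its 3 other probes were also lower in Azathioprine, by -0.04, -0.24 and -0.37. Tigar, which lowers glycolytic flux, was also low in Azathioprine (7.80), with 8.59 in Cyclophosphamide and 8.23 in Methotrexate, against 8.57 (8.36 to 8.79) in controls. Pidd1, a death domain protein, had its highest value of the series in Methotrexate, at 5.82, where controls reached 5.50 and only 2 of the 10 detected it.

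The crosslink and double-strand break repair list, which holds the Fanconi anaemia genes that resolve the lesions an alkylating mustard makes, had 28 of 46 genes measured and medians of -0.08 in Cyclophosphamide, 0.07 in Methotrexate and -0.35 in Azathioprine. Cyclophosphamide lay above all controls in 0 of the 28 genes and below in 3 (7.2% and 12.5% of all genes), and Azathioprine lay below all controls in 14 (16.7% of all genes). Fanci, which is loaded on crosslinked DNA, had 5.70 in Cyclophosphamide, 6.32 in Methotrexate and 5.21 in Azathioprine, against 6.34 (5.59 to 6.72) in controls. Fanci was not above background in Azathioprine. The cell division genes, described next, were low alongside the repair genes in Azathioprine, and their part in this was not tested. The excision and mismatch repair list (33 of 41 measured) had medians of -0.13, 0.06 and 0.04, and the apoptosis regulators (15 of 23) -0.08, 0.05 and 0.03. Bcl2l1, which encodes the survival protein Bcl-xL, was at 8.31 in Methotrexate, above all controls (7.32 to 8.12), with 7.64 in Cyclophosphamide and 7.89 in Azathioprine, and its 2 other probes were 0.64 and 0.55 higher in Methotrexate. Bid, which links caspase-8 to mitochondria, was at 7.10 in Azathioprine, above all controls (6.08 to 6.66), with 6.48 in Cyclophosphamide and 6.19 in Methotrexate.

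Cell division genes separated Azathioprine from the other drugs. The list holds cyclins, the helicase and polymerases of DNA replication, and mitotic kinases and kinetochore proteins, and 48 of its 64 genes were measured. Such promoters are known for 3 elements: the cell cycle genes homology region (TTTGAA), the NF-Y box (CCAAT) and E2F sites (TTTCGCGC or TTTGGCGC), all on both strands. RefSeq promoter windows of GRCm38.p6 of 300 bases around a gene's start matched 38 of the 48 genes. TTTGAA was found in 17 of them (44.7%), against 20.2% of all 27025 genes in the table. CCAAT was in 23 (60.5%), against 41.1%, and an E2F site in 7 (18.4%), against 0.929%. In the promoters of this list and of the stress list below, matches of different elements overlapped 1 time. The promoters of Top2a (topoisomerase II alpha, which untangles chromosomes) and Plk1 (a mitotic kinase) are shown because both genes were among the lowest in Azathioprine and hold both TTTGAA and CCAAT, in capitals on either strand; they were chosen after the values were seen.
Top2a, chr11:99024140-99024439, minus strand: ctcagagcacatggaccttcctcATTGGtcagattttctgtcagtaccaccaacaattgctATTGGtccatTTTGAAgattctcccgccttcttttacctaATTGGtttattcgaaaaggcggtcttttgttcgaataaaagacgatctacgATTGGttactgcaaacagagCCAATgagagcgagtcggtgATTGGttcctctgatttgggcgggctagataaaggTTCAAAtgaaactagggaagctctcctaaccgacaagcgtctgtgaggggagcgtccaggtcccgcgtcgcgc
Plk1, chr7:122159185-122159484, plus strand: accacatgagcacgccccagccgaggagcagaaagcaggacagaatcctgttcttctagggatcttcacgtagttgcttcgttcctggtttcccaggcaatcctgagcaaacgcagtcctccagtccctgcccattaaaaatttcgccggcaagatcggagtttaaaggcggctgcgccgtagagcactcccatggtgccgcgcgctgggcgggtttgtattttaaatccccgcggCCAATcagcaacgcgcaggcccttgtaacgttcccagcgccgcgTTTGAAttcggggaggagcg

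In Azathioprine the median of the 48 genes was -0.90, 46 were below the control mean, 28 lay below all 10 controls (16.7% of all genes did), and 16 passed the single-drug rule downwards (3.16% of all genes). Top2a was at 8.18 in Azathioprine, with 9.08 in Cyclophosphamide and 9.59 in Methotrexate, against 9.66 (8.51 to 9.92) in controls. Plk1 was at 8.06, with 8.97 and 9.62, against 9.68 (8.41 to 10.02). Gins2, a subunit of the replicative helicase, had the lowest value of all 48 arrays in Azathioprine, at 7.21, with 9.15 in Cyclophosphamide and 9.12 in Methotrexate, against 9.25 (8.53 to 9.61) in controls. Its 2 other probes gave -1.75 and -1.66. Cenpe, a kinetochore motor, was the second lowest of the series there, at 7.23, with 8.66 and 8.99, against 8.66 (7.93 to 9.10). Cdk1, the mitotic kinase, had 8.53 in Azathioprine, below the controls (8.91 to 10.43), with 9.52 and 10.05 in the other drugs. In these genes Azathioprine stands alone below the controls while Cyclophosphamide and Methotrexate lie inside their range. Stmn1, which regulates microtubules in neurons as well as in mitosis, ran the other way, at 10.97 in Azathioprine and 7.97 in Methotrexate, above and below a control range of 8.13 to 10.93, with 10.32 in Cyclophosphamide.

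Cyclophosphamide and Methotrexate did not show that pattern. Their medians over the 48 genes were -0.16 and -0.01. Cyclophosphamide lay below all controls in 0 genes (12.5% of all genes) and Methotrexate in 1 (7.49%), which was Stmn1. Set against the control on the same chip, the median was 0.35 higher in Cyclophosphamide, which exceeded mock control 2 in 41 of 48 genes. Methotrexate was 0.71 higher than vehicle control 1, in 46 of 48 genes, and Azathioprine 1.33 lower than mock control 4, in 46 of 48 genes. The mean over the list was -0.12 in Cyclophosphamide and -0.13 in Methotrexate, the highest of the 6 arrays on each drug's chip, and -0.88 in Azathioprine, the lowest of the 6 on its chip. Among the 10 controls that mean was near the highest in mock control 4 (0.34). It was lowest in vehicle control 1 (-0.79) and mock control 2 (-0.45). The differences from the control on the same chip therefore depend on which control each chip held. Over the 35 arrays of other compounds that mean had a median of -0.56 (-1.38 to 0.35), and over the controls it ran from -0.79, in vehicle control 1, to 0.35. The low value of Azathioprine is thus common in the series (12 arrays were lower), and those of Cyclophosphamide and Methotrexate are on the high side. Without mock control 2 and vehicle control 1, the 2 lowest controls, Azathioprine lay below all remaining controls in 43 of 48 genes (21.4% of all genes), and Cyclophosphamide and Methotrexate in 10 each (19.2% and 11.2%). With the lowest controls of the list left out, such counts can only stay or rise, so they cannot test the difference. In the fit over the 3 drugs no gene of the list passed, and 2 of 48, Pold1 and Cdt1, had an unadjusted p under 0.05, both lower (3.86% of genes had one).

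**Figure D3:**
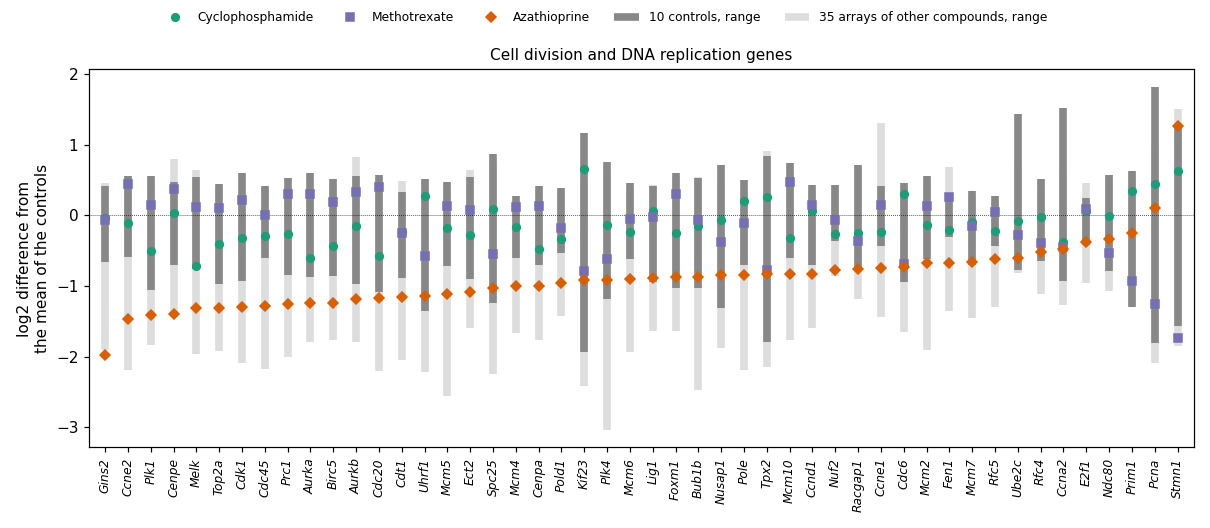
Log2 difference from the control mean for each of the 48 cell division and DNA replication genes measured, sorted by the Azathioprine value. Dark bars are the range of the 10 controls and light bars that of the 35 arrays of other compounds. The Azathioprine symbols run below the dark bars in 28 genes, while those of Cyclophosphamide leave them in 0 genes and those of Methotrexate in 1 (Stmn1).

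Neuronal genes were high and ciliary genes low alongside the division genes in Azathioprine, and their part in that result was not tested. The neuron markers (21 of 23 measured) had a median of 0.30 in Cyclophosphamide, -0.08 in Methotrexate and 0.76 in Azathioprine, and 1, 0 and 9 genes lay above all controls (7.2%, 13.9% and 19.5% of all genes). In Methotrexate 4 neuron markers lay below all controls (7.49% of all genes). Their summed level, taken as the mean difference over the list, was 0.24, -0.17 and 0.90, against -0.39 to 1.02 in controls. The 1.02 belongs to vehicle control 1, and without it and mock control 2 Azathioprine exceeded all remaining controls in 20 of 21 neuron markers (28.4% of all genes). With the highest control of the list left out, such a count can only stay or rise, so it cannot test the difference. Sncb (beta-synuclein) had 6.71 in Cyclophosphamide, 6.06 in Methotrexate and 8.29 in Azathioprine, against 5.98 (5.67 to 8.13) in controls, and was the largest upward difference of Azathioprine. Synapse genes (17 of 23) had medians of -0.06, -0.18 and 0.96, with 7 genes above all controls in Azathioprine (19.5% of all genes). The mean over the synapse list was 1.07 in Azathioprine, rank 41 of 48 from the lowest, and 1.12 in vehicle control 1. Other compounds had a median of 0.69 (-0.38 to 1.82). Syn2, a synaptic vesicle phosphoprotein, had 8.77, 8.61 and 9.83 (Cyclophosphamide, Methotrexate, Azathioprine), against 8.08 (7.23 to 9.26) in controls. Sv2a, a vesicle glycoprotein, had 9.12, 8.36 and 10.29, against 8.52 (8.11 to 9.45). For both genes Azathioprine is above every control, and it was also high in the interneuron genes, whose median over 9 of 13 genes was 0.89. There Gad1, which makes GABA, had 10.15 in Cyclophosphamide, 9.52 in Methotrexate and 11.20 in Azathioprine, against 9.84 (9.45 to 10.32) in controls, and Dlx1, an interneuron transcription factor, had its highest value of the series in Azathioprine (11, against 9.79 to 10.47 in controls). Excitatory neuron markers (12 of 14) had medians of 0.11, -0.12 and 0.45.

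Motile cilia markers, genes of the axoneme of ependymal cells, split the drugs most widely. Of 18 such genes 14 were measured. Their median was -0.55 in Cyclophosphamide, 0.43 in Methotrexate and -1.23 in Azathioprine. Methotrexate lay above all controls in 7 of the 14 (13.9% of all genes) and Azathioprine below all of them in 11 (16.7%). Rsph1, a radial spoke protein, had its highest value of the series in Methotrexate, at 12.20, with 10.80 in Cyclophosphamide and 9.87 in Azathioprine, against 11.66 (10.38 to 11.88) in controls. Tekt1, a tektin of ciliary microtubules, had 8.94, 10.20 and 8.18 (Cyclophosphamide, Methotrexate, Azathioprine), against 9.84 (8.63 to 10.13), and was likewise the highest of 48 in Methotrexate. Cfap299 had 8.86, 9.77 and 6.96 in the same order, against 9.41 (8.37 to 9.54), and its second probe gave -2.29 in Azathioprine. Iqcg, a ciliary gene outside the list, was the only gene in which Methotrexate exceeded all 47 other arrays by at least 0.5 units (1 gene, 0.0101%, with 7.63, against 5.66 to 7.11 in controls). Within their own chips Cyclophosphamide and Methotrexate had the highest and Azathioprine the lowest mean of the 6 arrays over this list. Ciliary genes are low in many other compounds too, with a median mean of -0.39 (-1.73 to 0.43) over the 35 arrays.

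Vascular, mural and meningeal markers (10 of 18 measured) had a mean of -0.14 in Cyclophosphamide, 0.61 in Methotrexate and -0.74 in Azathioprine, against -0.41 to 0.62 in controls. Acta2, the actin of smooth muscle and mural cells, had 11.47, 13.30 and 10.66, against 11.81 (10.90 to 13.61) in controls. Methotrexate was second highest of the series for this gene, and Azathioprine was below all controls. Pdgfrb had 6.36, 5.72 and 6.14, against 5.77 (5.24 to 6.11), so Azathioprine was above all controls there. Flt1 had 7.18, 6.97 and 6.23, against 7.30 (6.45 to 7.92). Of the 10 genes, Methotrexate lay above all controls in 0 and below them in 0 (13.9% and 7.49% of all genes). Azathioprine lay above them in 1 and below them in 4 (19.5% and 16.7%). Astrocyte and radial glia markers (17 of 18) had medians of 0.11, -0.01 and 0.23, with Gfap at 12.81, 12.5 and 11.65, against 12.07 (11.62 to 12.62). By this probe Cyclophosphamide therefore exceeded all controls for Gfap, at 0.79 above the control mean. A second Gfap probe gave 0.36, 0.51 and 0.36, so the 2 probes disagree on the direction in Azathioprine (-0.37 by the first). Oligodendrocyte lineage markers (12 of 14) had medians of 0.18, -0.17 and 0.28. Pdgfra, the receptor of their progenitors, was at 8.52 in Methotrexate, below all controls (9.16 to 9.97), with 9.70 in Cyclophosphamide and 9.69 in Azathioprine. Microglia markers (9 of 15) had medians of 0.22, 0.01 and 0.35, and Cx3cr1, a microglial chemokine receptor, had 10.35, 9.74 and 10.16, against 9.81 (8.82 to 10.31). Mpeg1, a macrophage pore-forming protein, had its highest value of the series in Cyclophosphamide, at 10.61, with 8.14 in Methotrexate and 8.83 in Azathioprine, against 9.97 (7.07 to 10.37) in controls. No microglia marker lay below all controls in any drug, where 12.5%, 7.49% and 16.7% of all genes did. Over this list vehicle control 1 had by far the lowest mean of the controls, at -1.22.

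**Figure D4:**
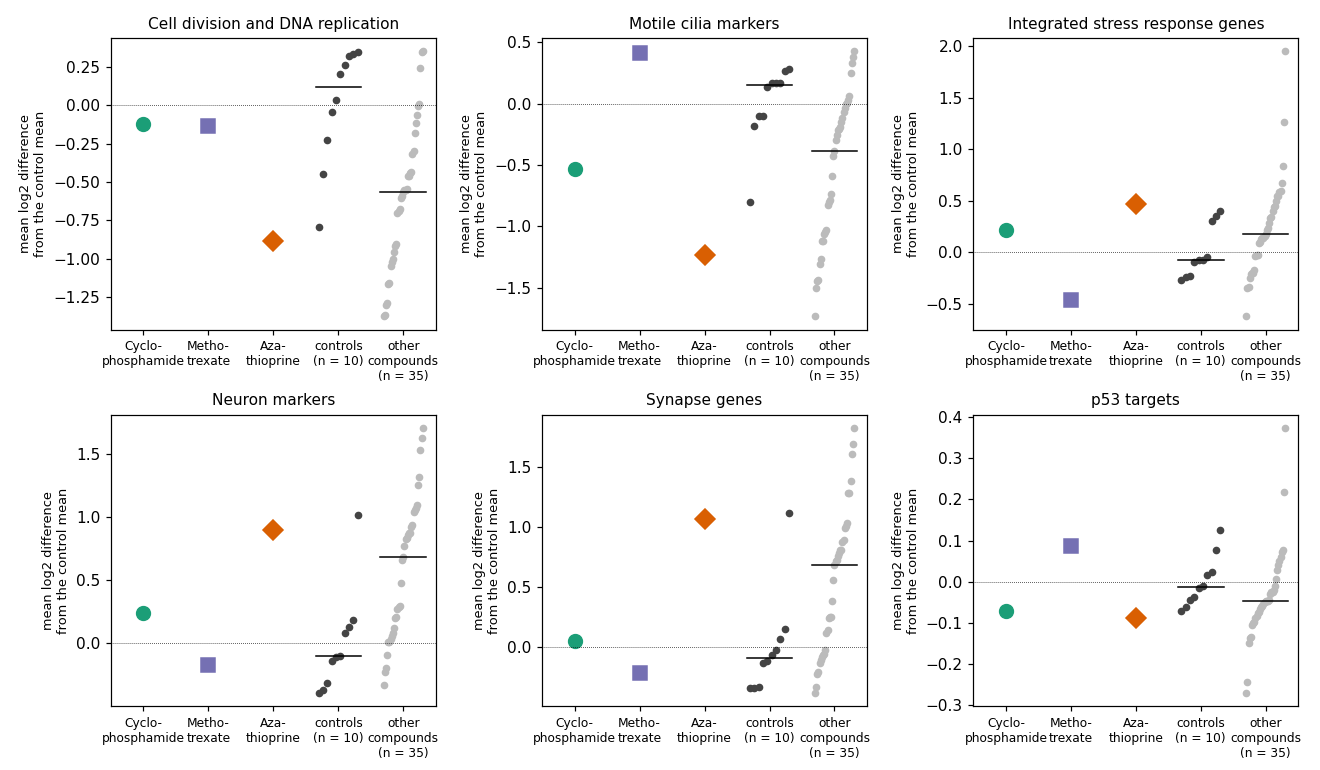
Mean log2 difference from the control mean over the measured genes of 6 lists, by array. Large symbols are the 3 drugs, dark points the 10 controls, light points the 35 arrays of other compounds, and bars the medians. Azathioprine is low in cell division (-0.88) and cilia (-1.24) and high in synapse genes (1.07), Methotrexate is low in the integrated stress response (-0.47), and the p53 targets stay between -0.09 and 0.09 in all 3 drugs.

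Integrated stress response genes set Methotrexate apart. This programme, run by the transcription factor ATF4 after amino acid shortage or unfolded protein, makes amino acid transporters and biosynthetic enzymes, including mitochondrial folate enzymes. Many of its genes carry the amino acid response element (searched as TGATGNAA on both strands, a motif added after the values were seen), which was in the promoter window of 9 of 18 list genes found in the RefSeq table (50%), against 4.51% of all genes. The promoters of Asns (asparagine synthetase) and Slc7a11 (the cystine and glutamate exchanger) are shown because both genes had their lowest value of all 48 arrays in Methotrexate. The windows of Atf4, Ddit4 and Psat1, also low in Methotrexate, hold 0 matches. Capitals mark the element on either strand.
Asns, chr6:7693160-7693459, minus strand: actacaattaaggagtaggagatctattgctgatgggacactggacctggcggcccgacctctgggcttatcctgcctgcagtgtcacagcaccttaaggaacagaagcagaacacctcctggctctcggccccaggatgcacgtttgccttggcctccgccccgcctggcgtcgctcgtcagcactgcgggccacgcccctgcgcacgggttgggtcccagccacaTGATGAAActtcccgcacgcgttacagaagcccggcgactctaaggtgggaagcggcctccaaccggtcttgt
Slc7a11, chr3:50443564-50443863, minus strand: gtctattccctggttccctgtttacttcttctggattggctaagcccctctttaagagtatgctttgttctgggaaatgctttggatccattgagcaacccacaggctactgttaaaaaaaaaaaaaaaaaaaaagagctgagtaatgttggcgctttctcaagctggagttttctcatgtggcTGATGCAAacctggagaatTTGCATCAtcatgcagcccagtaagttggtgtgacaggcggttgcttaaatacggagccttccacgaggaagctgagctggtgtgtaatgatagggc

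Of 24 stress genes 21 were measured, with a median of 0.26 in Cyclophosphamide, -0.33 in Methotrexate and 0.50 in Azathioprine. Methotrexate lay below all controls in 7 of the 21 (7.49% of all genes) and passed the single-drug rule in 5 (1.43%), and the mean over the list, -0.47, was the second lowest of 48 arrays and lowest of the 6 on its chip. Asns had 10.14 in Cyclophosphamide, 8.42 in Methotrexate and 10.33 in Azathioprine, against 9.54 (8.97 to 10.26) in controls, and its second probe was -1.22 in Methotrexate. Slc7a11 had 8.27, 6.10 and 6.85 in the same order, against 7.32 (6.50 to 7.89), with a second probe at -0.66 in Methotrexate. Atf4 itself had 9.56, 7.96 and 9.85, against 8.90 (8.15 to 10.03), and its second probe was -0.99 in Methotrexate. Ddit4, an inhibitor of mTORC1, had 7.41, 6.16 and 7.74, against 7.38 (6.50 to 7.84). In each of these 4 genes Methotrexate lies below every control, and Cyclophosphamide exceeds every control for Slc7a11. Psat1, of serine synthesis, was also low in Methotrexate (11.14, against 11.23 to 11.69 in controls), and its second probe gave -1.34. Mthfd2, the mitochondrial folate enzyme of the programme, was not: it had 9.21, 9.17 and 9.27, against 9.27 (8.93 to 9.62). Chop, encoded by Ddit3, stayed inside the control range in every drug (7.72, 8.09 and 8.80, against 7.56 to 9.14). In the fit over the 3 drugs no gene of this list had an unadjusted p under 0.05. The genes of the list with the smallest p were Cebpb, Vldlr, Atf3 and Slc7a5. In Methotrexate each of them lay inside the control range, with differences of 0.125, 0.349, 0.225 and -0.255 from the control mean. Over the list, Methotrexate was below the control mean in 16 of the 21 genes and above it in 5. Without mock control 2 and vehicle control 1, Methotrexate lay below all remaining controls in 8 of the 21 genes (11.2% of all genes), and Azathioprine above them in 12 (28.4%). Leaving out controls can only keep or raise such counts.

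**Figure D5:**
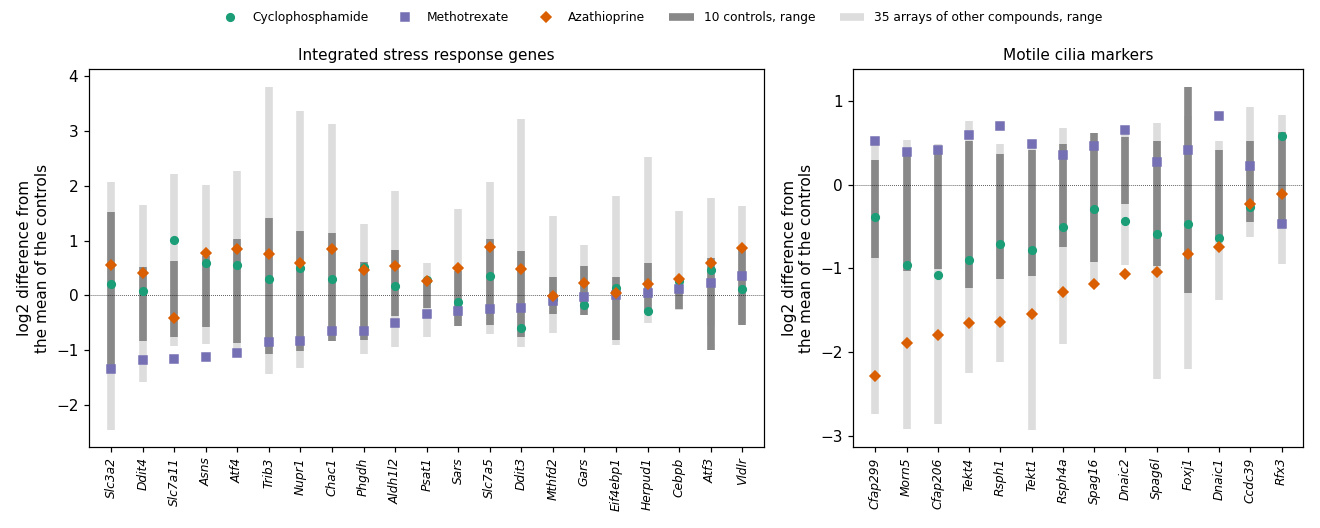
Log2 difference from the control mean for the 21 integrated stress response genes, sorted by Methotrexate, and the 14 motile cilia markers, sorted by Azathioprine. Dark bars are the range of the 10 controls and light bars that of the 35 arrays of other compounds. Methotrexate lies below the dark bars in 7 stress genes, and Azathioprine below them in 11 cilia genes, where Methotrexate lies above them in 7.

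Nrf2 targets (16 of 18 measured) had medians of 0.21 in Cyclophosphamide, -0.10 in Methotrexate and 0.24 in Azathioprine. Interferon-stimulated genes (18 of 29) had medians of 0.08, 0.17 and -0.36, and Azathioprine lay below all controls in 7 of them (16.7% of all genes). Among these Bst2, the virus tether tetherin, was at 9.15 in Azathioprine, the third lowest of the series, with 10.55 in Cyclophosphamide and 10.98 in Methotrexate, against 10.72 (9.90 to 11.08) in controls. H2-D1, a class I histocompatibility gene, had 12.65, 12.10 and 10.85 (Cyclophosphamide, Methotrexate, Azathioprine), against 12.13 (10.84 to 12.37), but its second probe ran against the first in Cyclophosphamide (-2.30). Inflammatory and NF-kB targets (17 of 22) had medians of 0.00, -0.13 and -0.32, activity-regulated genes (11 of 20) of 0.07, 0.05 and 0.10, and cholesterol synthesis genes (15 of 21) of -0.10, 0.23 and 0.01. Dusp1, an immediate early phosphatase of MAP kinases, was an exception with its highest value of the series in Methotrexate, at 10.38, with 8.56 in Cyclophosphamide and 8.80 in Azathioprine, against 8.91 (8.55 to 9.99) in controls.

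The largest differences of each drug are named by size. In Methotrexate the 6 largest upward differences were Cptp, Ltbp2, Thbs1, Dusp1, Pxdc1 and Ly6c1, and the last 5 had their highest value of all 48 arrays there. Thbs1, an extracellular thrombospondin, had 6.96 in Cyclophosphamide, 8.10 in Methotrexate and 6.52 in Azathioprine, against 6.67 (5.81 to 7.60) in controls. Ltbp2, a matrix protein, had 5.33, 7.74 and 4.87, against 6.20 (4.99 to 7.68), and only its Methotrexate value was above background among the drugs. For Ltbp2 the margin over the highest control was small, and mock control 4 was the nearest control in 17 of the 25 high genes of Methotrexate. The 6 largest downward differences were Kpna3 (at least 3.23-fold lower than the control mean, since it was not above background in Methotrexate), Huwe1, Stmn1, Snx1 (at least 2.73-fold), Samd8 (at least 2.20-fold) and Ndrg4. Such a bound sets the control mean against the lowest signal detected on the drug array. Against vehicle control 1 on the same chip, these differences were -0.23 (Kpna3), -0.24 (Huwe1), -0.38 (Stmn1), -0.03 (Snx1), -0.34 (Samd8) and -1.24 (Ndrg4). Only Ndrg4 was thus lower by at least 1 unit there. The upward differences against that control were 0.25 (Cptp), 2.11 (Ltbp2), 1.67 (Thbs1), 1.82 (Dusp1), 1.32 (Pxdc1) and 1.76 (Ly6c1). Huwe1, a large ubiquitin ligase, had 8.43, 5.80 and 7.37 in the 3 drugs, against 7.99 (6.03 to 8.59), and its second probe gave 0.22 in Methotrexate. The second probe of Samd8 gave 0.1 there, so the probes of both genes disagree.

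The 141 low genes of Methotrexate recurred on neighbouring chips. Ethyl Ferulate (chip 7) lay below all controls in 117 of them (83%), Erythropoietin in 106 and Baclofen in 99 (75.2% and 70.2%, both on the chip of Methotrexate), and the other compounds of that chip, Liothyronine and Simvastatin, did so in 33 and 11 (23.4% and 7.8%). On the neighbouring chips, FK-506 (chip 8) and Benzamide (chip 7) did so in 76 and 74. Over the 31 arrays of other compounds on other chips the median was 1 gene (0.709%). The lowest control was vehicle control 1, 2 or 3 (chips 6, 7 and 8) in 68, 47 and 25 of the 141 genes, and 1 gene had vehicle control 4 (chip 1). The mock controls lie on none of chips 6 to 8. Asns and Slc7a11, which are among the 141, were 1.31 and 1.56 units lower in Methotrexate than in vehicle control 1 of its own chip. For the genes that were as low on chip mates, the part of the chip was not tested.

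In Azathioprine the 6 largest upward differences were Sncb, Bach1, Gatad2b, Gnai1, Chl1 and Syn2, of which Sncb, Chl1 and Syn2 are neuronal. Gnai1, an inhibitory G protein subunit, had its highest value of the series there, at 9.34, with 8.22 in Cyclophosphamide and 7.60 in Methotrexate, against 7.41 (6.84 to 8.28) in controls. Chl1, a neuronal adhesion molecule, had 6.13, 5.73 and 7.91, against 5.88 (5.66 to 7.62). The 6 largest downward differences were Sri, Cldn12, Synpo, Cfap299, Maats1 and A730049H05Rik. Sri (sorcin, a calcium-binding protein) had 8.64, 9.07 and 5.76, against 8.80 (7.71 to 8.89), which puts Azathioprine 2.91 units below the control mean. Synpo (synaptopodin, an actin-associated protein) had 9.34, 10 and 6.59, against 9.44 (8.46 to 9.92), the lowest value of all 48 arrays in Azathioprine and the highest in Methotrexate. Cldn12, a claudin, was at least 4.17-fold lower than the control mean in Azathioprine, where it was not above background. Rapgef5, an exchange factor for Rap GTPases, stood 1.69 units above the control mean in Azathioprine (7.54, with 6.10 and 6.21 in the other drugs, against 5.86 (5.41 to 6.41)), and its 2 other probes gave 1.38 and 1.60. Pcdhb16, a protocadherin, was the 1 gene (0.0101%) in which Azathioprine exceeded all 47 other arrays by at least 0.5 units. Of its 312 low genes, MitoPBN2, Nimodipine, Necrostatin-1 and Simvastatin lay below all controls in 280, 279, 277 and 274, and of its 184 high genes Ifenprodil, Nimodipine and MK-801 lay above all controls in 133, 130 and 125. Over the 31 arrays on other chips the medians were 104 of the low genes (33.3%) and 58 of the high genes (31.5%). None of the arrays named is on the chip of Azathioprine, where the other 4 compounds did so in 5 to 190 of the low and 22 to 73 of the high genes.

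In Cyclophosphamide the 6 largest upward differences were Psmc1, Uba6, Csnk2a1, Mmp16, Cep295 and Gatad2b. Uba6, a ubiquitin-activating enzyme, had 11.68 in Cyclophosphamide, 9.66 in Methotrexate and 10.49 in Azathioprine, against 9.98 (8.22 to 10.68) in controls, but 28 of the 35 other arrays were above all controls as well. Psmc1, a proteasome ATPase, had 9.30, 8.18 and 8.92, against 6.88 (4.87 to 8.94), a range so wide that its place above the controls rests on a small margin. The 6 largest downward differences were Cbwd1, Pipox, Ttc29, Cfap206, Ifi208 and Fam117a. Cbwd1 had 5.79, 7.23 and 6.54, against 7.60 (6.64 to 7.93), the second lowest value of the series in Cyclophosphamide. Pipox, a peroxisomal oxidase, was not above background in Cyclophosphamide and at least 2.00-fold lower than the control mean. Ttc29 and Cfap206, both ciliary, had 5.60 and 7.09 in Cyclophosphamide, close to the 5.68 and 7.16 of mock control 2 on the same chip. Zbtb7a, a transcriptional repressor, was the gene in which Cyclophosphamide stood farthest above the 47 other arrays, at 8.77, with 8.16 in Methotrexate and 7.54 in Azathioprine, against 7.81 (7.56 to 8.16), and its second probe was 1.09 higher in Cyclophosphamide but also higher in both other drugs (0.88 and 1.06), although the first probe had its lowest value of the series in Azathioprine. No gene stood 0.5 units beyond all other arrays in Cyclophosphamide, in either direction.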

How the data were processed

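Gene expression was measured on 48 Illumina mouse arrays, 3 with Cyclophosphamide, Methotrexate or Azathioprine, 10 controls and 35 with other compounds (33 compounds, of which Z-VAD-FMK and MitoPBN have repeat arrays). The deposited values are mean bead intensity on a linear scale, exported with BeadStudio per the submitters' processing notes, whose version and normalization are not given there. Each deposited detection p-value, per the file headers, sets a probe against the array's negative control beads. In R 4.3.3 with limma 3.58.1, background was estimated by normexp from those p-values (offset 16), followed by quantile normalization over all arrays and log2. Of 46632 probes, 17815 entered the fits, those with a detection p under 0.01 on 6 or more arrays. Gene names came from the platform annotation: 29976 probes have 1 symbol, 10 several and 16646 none. A gene is shown by its brightest tested probe (9869 genes), and for some genes other probes that disagree or bear out the value are given. lmFit and eBayes compared the 3 drugs with the 10 controls and with the 33 other compounds, with Benjamini-Hochberg adjustment over all probes. Array number limits the precision.

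A single drug has 1 array and no test. Named genes are those with the smallest p in a fit or list (up to 4 a list), the most extreme genes of each drug by the stated rules, the shared genes with the largest smallest difference, and the drugs' targets, 1 of which is not reported here. Members of a list outside these, and both promoter pairs, were picked after their values were seen. The members and lists were chosen with earlier results of these data known. The fits were tested on simulated data. Alternatives changed the scaling, background, detection filter, chip, position, solvent and samples. Figures used Python 3.11.15 and matplotlib 3.10.9.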

Additional observations from a re-analysis of the deposited data

Results flagged for a closer look

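Among 212 genes and lists examined, 28 had 1 control array set far apart from the other 9 by Dixon's test, which chance does in about 1 in 20. Vehicle control 1, on the chip of Methotrexate, was the high one for Sncb (8.13), Chl1 (7.62), Syn2 (9.26), Mapt (12.04), Syp (10.12), Neurod2 (8.15), Sv2a (9.45), Rims1 (6.17) and Fdps (11.89). It was also high in the mean difference over the neuron markers (1.02), the excitatory neuron markers (0.70) and the synapse genes (1.12), and low for Cdt1 (7.59), Trem2 (8.60) and Laptm5 (10.90). Mock control 2, on the chip of Cyclophosphamide, was the low one for Ttc29 (5.68), Iqcg (5.66), Adamts20 (4.59), Map3k21 (5.66), Cfap299 (8.37), Morn5 (8.68) and Tekt1 (8.63), and in the mean over the motile cilia markers (-0.80). Vehicle control 2 was high for Rpp30 (9.52) and low for H2-D1 (10.84). Rcor2 was high in mock control 5 (6.62), Aqp4 in mock control 3 (11.92), and Sri was low in vehicle control 3 (7.71).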

How the results depend on the processing

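The 3 drugs against controls gave 0 probes in the main fit and 1 with median scaling, 9 with the series matrix values, 3 with no detection filter, 4 with chip as a random term and 19 with position as a covariate (18 higher, 1 lower), and the cause was not tested. Against other compounds, 1 probe passed with no detection filter. Leaving out each drug or control in turn (against other compounds, each drug) gave 0 to 0 called probes in limma, with 554 to 1989 and 135 to 432 at an unadjusted p under 0.05. No paired analysis was possible because each drug has 1 array and its replicate number pairs it with no control. Chip, which each drug shares with 1 control, gave 0 called probes as a fixed term (441 at an unadjusted p under 0.05 in limma). With no background correction, Cyclophosphamide had 8 genes higher and 1 lower, Methotrexate 6 and 47, and Azathioprine 73 and 151. Without it 0 genes stood above all other arrays in Methotrexate and 0 in Azathioprine. With mock controls only, Cyclophosphamide had 13 genes higher, Methotrexate 40 higher and 572 lower, and Azathioprine 306 higher. On probes detected on all 48 arrays, Cyclophosphamide had 3 lower, Methotrexate 7 higher and 86 lower, Azathioprine 107 higher and 206 lower, and both of these drugs 0 above all other arrays. Median scaling gave Methotrexate 213 lower genes, with 3 above and 1 below all other arrays, and Azathioprine 5 below them. Leaving out each control in turn, an alternative chosen after seeing the data like the lists without 2 controls, gave Cyclophosphamide 23 to 33 genes higher and 7 to 23 lower (most without mock control 2). Methotrexate had 19 to 42 higher (42 without mock control 4) and 122 to 259 lower (259 without vehicle control 1), and Azathioprine 181 to 314 higher (314 without vehicle control 1) and 294 to 364 lower. Of the single-drug differences 73 of the values recomputed lay more than the control spread from the main value and 1265 did not. Some list medians near 0 changed sign: with mock controls only the astrocyte median of Cyclophosphamide was -0.14 and the folate median of Azathioprine 0.09, and with median scaling the apoptosis median of Methotrexate was -0.06.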
